A study of Drosophila melanogaster with 16 samples.

Results

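The RNAs described here are the 145 genes whose transcripts each carried at least 30 A-to-G sites in *Drosophila* S2 cells and larval brains that expressed FMR1 fused to the catalytic domain of ADAR (FMR1-ADARcd-V5). A site was a single-base change from A to G, read in the orientation of the transcript, with a variant quality above 250 and with fewer than 95% of its reads edited over the 14 bulk libraries. These 145 genes held 5951 of the 32873 sites that met these limits (18.1%), and they made up 2.90% of the 5003 genes with any such site. The number of sites, their positions and the presence of editing therefore chose the RNAs and are given as a description only. Sites were called on the libraries together, arsenite included, so reads edited in arsenite helped to choose the RNAs. An edited read was seen at 5549 of their sites in S2 arsenite and at 4826 in Schneider's, and at 3659 and 2537 in brains. The direction of the difference between arsenite and Schneider's is in part tied to this choice, as it is for all genes with a site.

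ADAR enzymes convert adenosine to inosine in RNA, and inosine is read as G by the sequencer. In TRIBE and its more active form HyperTRIBE, the ADAR catalytic domain is carried to RNAs by an RNA-binding protein, so that edited adenosines mark the RNAs that the protein came close to. FMR1 is the fly homolog of the fragile X protein, binds many long messenger RNAs largely in their coding sequence, and moves into stress granules, the cytoplasmic condensates that form when arsenite blocks translation initiation. An RNA with many sites therefore offers a view along its length that an RNA with a single site does not.

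S2 cells are a cultured line from late embryos with hemocyte-like features. They came from 1 stable clone that carried the fusion under a copper-inducible metallothionein promoter. Expression was induced for 4 h with 1 mM copper sulfate, after which the cells stayed in Schneider's medium (basal condition, n = 3) or received 0.5 mM sodium arsenite (n = 3) for 4 h. Brain samples were pools of brains from L3 larvae, the last larval stage, dissociated to cells, in which RU486 had switched on elav-GeneSwitch-Gal4 and with it a UAS transgene of the same fusion in neurons. They too were kept in Schneider's (n = 3) or treated with 0.5 mM arsenite (n = 3) for 4 h. Each source had 1 library without induction, a level for which no spread can be given. The labels number the replicates, the study calls the brain samples biological triplicates, and p-values measure the spread between these libraries. Because the induction system differs with the source, the effect of tissue and that of induction cannot be told apart.

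The depth in deduplicated reads, summed over all sites, was 247153 to 458176 in the 14 libraries, of which 41288 to 79318 lay at sites of the 145 RNAs. A read that covers several sites counts at each of them, here and in the reads given per gene. The median site of these RNAs was covered by 5 to 11 reads per library, fewer in brains than in S2 cells. Markers of neurons, a list of 12 genes, had 240 reads in the 7 S2 libraries and 5021 in the 7 brain libraries at their sites, with Syt1, Rim and para at 0 reads in S2 cells. The synaptic genes nSyb, brp and Syn had 6, 2 and 3 reads in S2 cells against 231, 427 and 308 in brains. Of the marker lists, the neuroblast gene pros and the hemocyte gene Pxn were among the 145 RNAs, and no neuron or glia marker was.

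The group consisted of long messenger RNAs. One member, CR43283, was annotated as a non-coding RNA and the other 144 as protein-coding. The median member had 37 sites and 25 members had 50 or more. The annotated transcript was 7008 nt long at the median, against 2554 nt for the other genes with a site. Members also carried 5.61 sites per kb of transcript at the median and the others 1.44. Each of their sites was covered by 9.73 reads per library against 7.44. Across 4952 genes the number of sites followed transcript length with Spearman's rho = 0.52 and reads per site with rho = 0.31, a description over genes that share libraries and depth. At the limit of the choice, the 10 genes with 29 sites had median editing frequencies of 14.6% in Schneider's and 24.8% in arsenite in S2 cells, and the 14 genes with 30 sites 13.3% and 24.0%.

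The most sites were found in poe, which encodes a giant protein of the UBR ubiquitin ligase family, with 103. LanA, the laminin alpha chain of basement membranes, followed with 94. The ubiquitin ligase gene hyd had 82, the cytoplasmic dynein heavy chain gene Dhc64C 81, and Bruce, which encodes a very large inhibitor of apoptosis with ubiquitin-conjugating activity, 75. LanB1 (laminin beta chain, 67), kug (an atypical cadherin, 65), CG8184 (a HECT-type ubiquitin ligase, 63), dom (a chromatin remodelling ATPase, 62) and IntS1 (an Integrator subunit, 61) completed the 10 RNAs with the most sites. The members were spread over the genome, with 25 on chromosome arm 2L, 32 on 2R, 31 on 3L, 33 on 3R, 3 on chromosome 4 and 21 on X.

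Sites lay mainly in coding sequence. Of the 5951 sites, 93.5% were in coding exons, 3.14% in 3′ UTRs and 2.34% in 5′ UTRs of the annotated transcript, while among sites of the other genes 86.8% were coding. Within codons, 31.4% fell on the first base, 42.4% on the second and 26.2% on the third, the base at which a change is most often silent. Among coding sites of the other genes these shares were 30.3%, 46.0% and 23.6%. The base before the edited A was T at 35.9% of sites, A at 30.3%, C at 28.7% and G at only 5.04%. The base after it was G at 48.8%. The files give 3 bases around each site, in transcript orientation and with T for U, and these triplets are shown because they describe which adenosines were edited. The 4 most frequent, with the edited base in capitals, were:

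cAg: 17.8% of sites (1062)
aAg: 16.0% (955)
tAc: 13.1% (778)
tAg: 12.0% (716)

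In the other genes cAg, aAg, tAc and tAg made up 17.3%, 17.5%, 13.9% and 12.5% of sites. The triplets gAt (0.555%) and gAa (0.639%) were the rarest in the members. The level of editing followed the same letters in part. Among sites with at least 20 reads in each condition in S2 cells, tAc sites were edited at 14.5% in Schneider's and 24.0% in arsenite and tAg sites at 14.2% and 23.5%, while gAt sites were at 6.64% and 12.9%. The difference between conditions was nevertheless alike for all 4 preceding bases, between 8.49 percentage points after G and 9.41 after T.

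Along the RNA, neighbouring sites were close. Over 5788 gaps measured on spliced transcripts the median was 89 nt, with quartiles at 33 and 216 nt, and 10.1% of gaps were at most 10 nt, 33.9% at most 50 nt and 53.5% at most 100 nt. Genes with 10 to 29 sites had a median gap of 127 nt. The sites of a member spanned 86.5% of its transcript at the median, and those of 106 members more than 80%. When the coding sequence was divided into 10 equal parts, each part held between 8.63% and 10.7% of coding sites, the least in the part nearest the start codon. A window of 100 nt never held more than 7 sites, and the richest such window of a member held 4 at the median.

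Single RNAs departed from this pattern. Adar itself had the smallest median gap, 29 nt, with 31 sites in a transcript of 2315 nt, and only 3.23% of its sites lay in the first of 3 equal parts of that transcript. Its reads can stem from the fusion transgene, which carries the catalytic domain, as well as from the endogenous gene. CR43283 followed with 40 nt, and 73.8% of its 42 sites were in the first such part and none in the middle one. CG16974 came next with 41 nt. The widest spacing was found in mgl (megalin, an endocytic receptor, 362 nt), shot (the spectraplakin that links actin and microtubules, 317 nt) and spen (an RNA-binding transcriptional regulator, 254 nt), whose transcripts are 16625, 27842 and 18434 nt long.

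**Figure D1:**
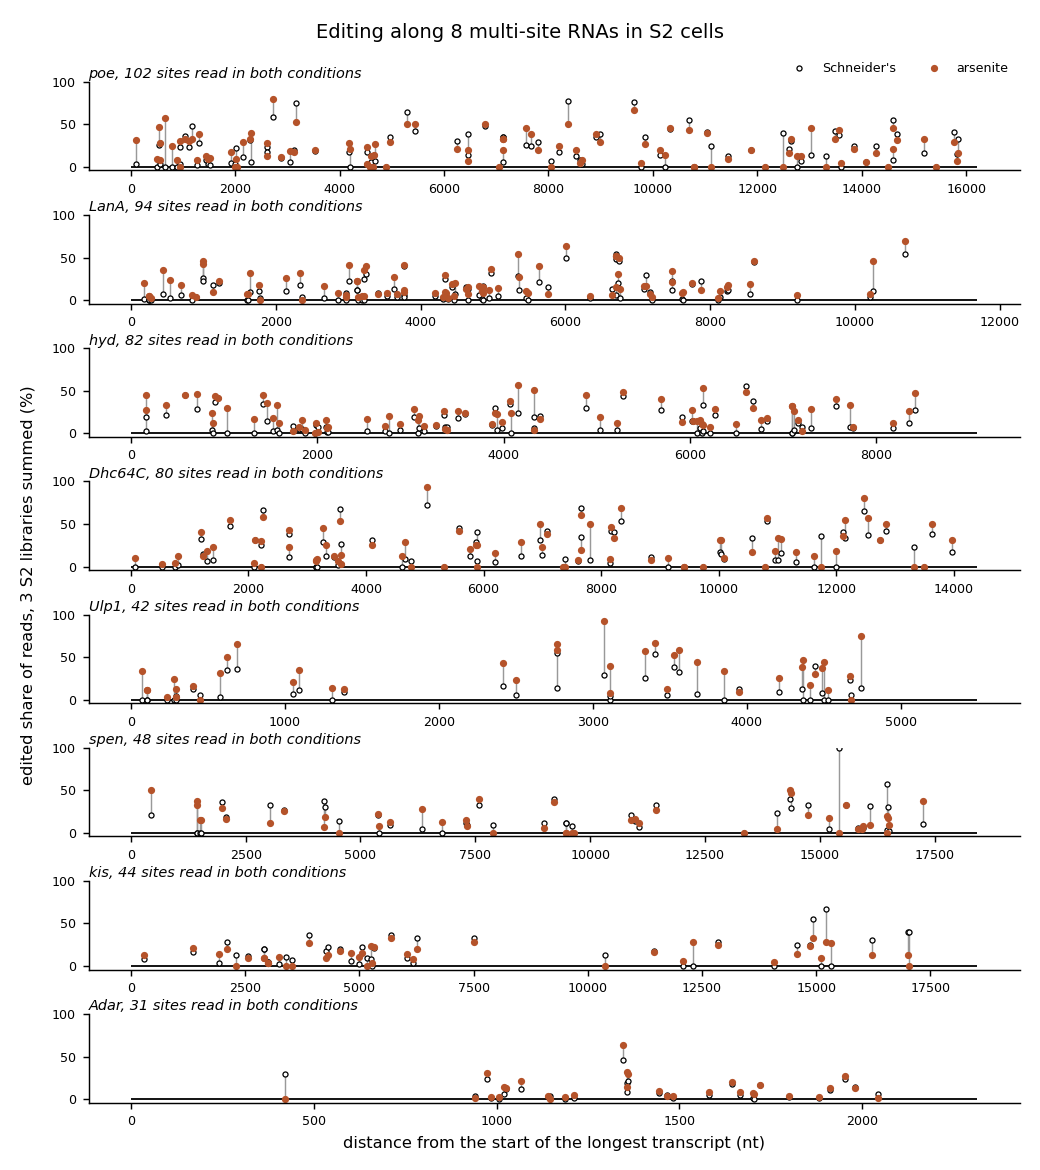
Edited share of reads at each site (y axis, %, reads of the 3 S2 libraries of a condition summed) against the distance of the site from the transcript start (x axis, nt) for 8 RNAs; open points are Schneider's, filled points arsenite, and grey lines join the same site. Sites run along nearly the whole length of poe, hyd and Dhc64C, most filled points lie above the open ones in hyd and Ulp1, many lie below them in kis, and nearly all sites of Adar lie beyond the first 900 nt.

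Mean editing over the members was low without induction, higher with the fusion and higher again in arsenite. In S2 cells the mean of the average editing frequency, which is the mean over a gene's positions with reads, was 0.735% in the uninduced library. It was 14.3%, 14.1% and 14.5% in the Schneider's libraries and 22.8%, 22.9% and 23.0% in the arsenite libraries, so that the groups did not overlap. The means were 14.3% ± 0.224 and 22.9% ± 0.0996 (SD, n = 3 each), a difference of 8.67 percentage points or 1.61-fold (exact permutation test over samples, two-sided, p = 0.1, the smallest that 3 against 3 allows). In brains the uninduced library was at 0.674%, the Schneider's libraries at 5.07%, 5.57% and 4.57%, and the arsenite libraries at 11.6%, 8.24% and 7.62%. The difference was 4.08 percentage points or 1.81-fold (exact permutation p = 0.1). Brain arsenite replicate 1 stood above the other 2, and without it the arsenite mean was 7.93% and the fold 1.56.

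The members began from a higher level than the remaining RNAs and gained less in proportion. The other 4858 genes had means of 10.5% ± 0.236 in Schneider's and 21.3% ± 0.137 in arsenite in S2 cells (SD, n = 3 each), 2.03-fold, and 4.32% and 9.55% in brains, 2.21-fold. When each library was divided by its own mean over those genes, only 2 members were called higher in S2 cells (limma, p under 0.01), where 3.53% of all 4589 genes were, and 20 members (13.8%) were called lower, where 3.27% of all genes were. On that relative scale 112 of the 145 differences were below 0, a count that was not made over all genes. The changes given below are on the scale of the editing frequency itself.

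**Figure D2:**
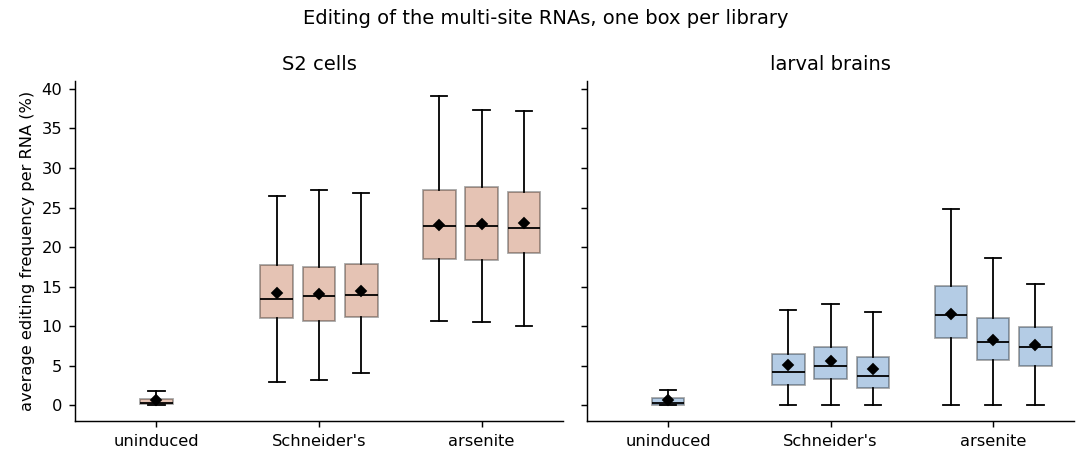
Average editing frequency of the 145 RNAs (y axis, %) in each library; a box gives the quartiles and median over RNAs, whiskers reach the farthest RNA within 1.5 box lengths, points beyond them are not drawn, and diamonds are means. The S2 means lie near 14% in Schneider's and 23% in arsenite with little spread, and the first brain arsenite library lies above the other 2.

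In S2 cells 57 of the 145 RNAs (39.3%) were more edited in arsenite than in Schneider's at the threshold used for the series (limma, p under 0.01), against 23.6% of all 4589 genes tested. None was less edited, against 0.0872% of all genes. At an unadjusted p under 0.05, 101 were higher and none lower, but all genes were not counted at that limit, so these counts have no background. With Benjamini-Hochberg adjustment over all genes at 0.05, 64 members were higher, against 27.3% of all genes. The median difference was 8.54 percentage points, below the 10.8 of all genes tested. In 121 members all 3 arsenite libraries lay above all 3 Schneider's libraries, where this held for 51.4% of all genes. A member had at least 30 sites to average, and the median gene with a site had 4. The shares of members and of all genes, here and below, therefore compare frequencies of unlike precision. How much of the excess in calls comes from this was not tested. Leaving out Schneider's replicate 1, 2 or 3 left 27, 29 or 26 calls. The folds ran from 0.733 to 4.28 with a median of 1.63.

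The largest difference was found for Ulp1, the SUMO protease that resides at nuclear pores. Its frequencies were 12.7%, 12.3% and 13.3% in Schneider's and 33.5%, 35.7% and 28.2% in arsenite, and 0.272% without induction. The groups were far apart, with a difference of 19.7 ± 2.59 percentage points (SE, limma, adjusted p = 0.0182). E(bx), which encodes the largest subunit of the nucleosome remodelling factor NURF, went from 7.92%, 8.11% and 14.8% to 32.7%, 30.6% and 26.1% (difference 19.5, adjusted p = 0.0219). One Schneider's library was nearer to arsenite than the other 2, and still well below it. Rif1, a regulator of replication timing, had 7.90%, 7.28% and 7.31% in Schneider's against 29.1%, 27.7% and 23.4% in arsenite. Its Schneider's libraries were nearly equal, and the difference was 19.2 percentage points (limma, adjusted p = 0.0182).

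FASN1, the fatty acid synthase gene, had the largest fold. Its 35 sites averaged 6.25%, 5.74% and 5.11% in Schneider's and 26.1%, 26.1% and 20.96% in arsenite, 4.28-fold (difference 18.7, limma adjusted p = 0.0182). The cohesin cofactor gene pds5 was similar in size, with 13.7%, 11.6% and 13.3% against 30.7%, 29.9% and 33.4% (difference 18.5, limma adjusted p = 0.0182). pzg, a zinc-finger gene whose product works with chromatin remodelling complexes, is the only member among the RNAs that the study discusses by name, and was thus not chosen independently of these data. It had 7.46%, 7.69% and 8.17% in Schneider's and 24.4%, 24.6% and 27.3% in arsenite (difference 17.6, limma adjusted p = 0.0182).

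At the other end, 5 members had lower means in arsenite, and none of them passed the test. The lowest was kis, a chromatin remodelling gene of the CHD family, with 18.6%, 16.6% and 17.3% in Schneider's and 11.1%, 11.7% and 15.6% in arsenite. It was the only member for which every arsenite library was below every Schneider's library (difference -4.67 ± 2.15, SE, limma adjusted p = 0.149). pcx, a Notch pathway gene, had 25.2%, 25.2% and 25.6% against 26.5%, 17.1% and 20.7%, with groups that overlapped (limma adjusted p = 0.332). The remaining 3, with differences of -1.38 for spen, -1.16 for the lipid transfer protein gene Vps13 and -1.11 for the initiation factor gene eIF4G2, overlapped widely.

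The RNAs with the most sites were not those that changed the most. poe was already at 22.4%, 19.7% and 18.1% in Schneider's and had 19.3%, 22.1% and 27.0% in arsenite, overlapping groups (difference 2.74 ± 2.81, SE, limma adjusted p = 0.452). hyd increased from 11.6%, 12.6% and 13.0% to 20.6%, 24.0% and 22.8% (difference 10.1, limma adjusted p = 0.026), LanB1 from 9.21%, 7.66% and 8.397% to 20.1%, 21.7% and 20.7% (12.4, adjusted p = 0.0202), and dom from 16.6%, 13.5% and 12.2% to 29.7%, 22.5% and 24.4% (11.4, adjusted p = 0.0382). Of these 3, dom rests on fewer settings, since its call was lost in 8 of 15 alternatives. LanA (6.80), Bruce (7.29), IntS1 (7.29), kug (6.05), Dhc64C (4.78) and CG8184 (2.74) had positive differences that missed the threshold. Across the 145 RNAs the difference was smaller where the Schneider's level was higher, with Spearman's rho = -0.28, a description in which both values share the Schneider's libraries.

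Grouped by function, with groups drawn up after the values had been seen, the members are described by counts, and groups were not compared by a test. The counts stand against the 39.3% of all members and 23.6% of all genes called higher. Nuclear pore and nuclear transport genes had 6 of 7 RNAs called higher, with differences from 7.75 to 13.7 percentage points. Among them Mtor, the nuclear basket protein Megator, went from 16.4% to 30.03%, Nup153 from 10.4% to 22.2% and emb, the exportin of nuclear export signals, from 8.43% to 18.0%. Nup205, with 13.2% and 20.95%, did not pass (limma adjusted p = 0.0768). All 7 had arsenite libraries entirely above the Schneider's libraries, as did 121 of the 145 members and 51.4% of all genes.

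Chromatin and chromosome genes had 10 of 16 called higher, although they also included kis. Their median difference of 10.9 percentage points was the highest of the groups, but near the 10.8 of all genes tested. Besides the RNAs already named, Sin3A, the corepressor scaffold, went from 5.75% to 19.99% and Hcf, host cell factor, from 17.2% to 31.6%, while trx, the trithorax methyltransferase gene, was at 19.3% and 22.1% and did not pass. Of the chromatin list drawn up for this tissue comparison, 8 of 41 genes were members and 5 of these were called higher in S2 cells and 0 in brains. In brains 1 of the 16 genes of the group was called, and 6.04% of all genes.

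Genes of transcription and splicing machinery had 0 of 7 called higher by limma at p under 0.01, with a median difference of 7.29 percentage points. The largest RNA polymerase II subunit gene RpII215 was at 13.9% and 22.0% (limma adjusted p = 0.0623), and Prp8, the core spliceosome protein gene, at 10.9% and 19.3% (adjusted p = 0.062), both just short of the threshold. In 6 of the 7 all arsenite libraries were nevertheless above all Schneider's libraries.

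In the ubiquitin and SUMO system 4 of 12 RNAs were called, near the share over all members, namely Ulp1, hyd, Ubr1 (12.2% and 24.0%) and the deubiquitinase gene Usp7 (14.2% and 31.4%). In the group of translation, RNA decay and RNA binding 6 of 18 were called, also near that share. eIF4G1, the scaffold of the cap-binding complex, went from 14.7%, 17.1% and 15.9% to 33.7%, 27.7% and 30.4%, and the Dicer genes Dcr-1 and Dcr-2 from 14.04% to 30.97% and from 11.8% to 24.6%. By contrast, the poly(A)-binding protein gene pAbp had 11.3%, 11.2% and 10.8% against 14.8%, 15.5% and 13.2% (difference 3.40, limma adjusted p = 0.193), and Ge-1, a scaffold of mRNA decapping, 17.4%, 21.6% and 16.0% against 21.2%, 22.1% and 20.5% (2.89, adjusted p = 0.356). Of the 30 genes in the list of granule and RNA-binding proteins, 5 were members and 1, eIF4G1, was called.

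Cytoskeleton and motor genes had 5 of 10 called, among them the spectrin gene beta-Spec (16.3% and 25.6%), matrix, adhesion and guidance genes 3 of 10, and genes of vesicle coats and membrane traffic 1 of 7, the endosomal gene Rme-8 (18.3% and 31.4%). The clathrin heavy chain gene Chc, with 11.8% and 19.8%, just missed the threshold on the unadjusted p (limma adjusted p = 0.0445). The 3 laminin chain genes differed among themselves in S2 cells, with 12.4 percentage points for LanB1, 6.80 for LanA and 5.12 for LanB2, and only the first was called. A list of translation factors and chaperones had no member.

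Most sites of an RNA moved in the same direction. Among the 104 RNAs with at least 20 sites that had 20 or more reads in each condition in S2 cells, the share of sites with a higher edited share in arsenite was 85.7% at the median and ran from 35% in kis, where it was 7 of 20 sites, to 100%. In Rif1 it was 31 of 31 sites and in the basement membrane gene Glt 40 of 40. The level itself varied widely within an RNA, from 0% at the lowest site to 62.5% at the highest site of the median RNA in arsenite. In brains, 70 RNAs had this depth and the median share of sites that were higher was 68.7%. Over all sites with 20 or more reads in each condition, 83.7% were higher in members and 86.7% in other genes in S2 cells. In brains these shares were 67.7% and 68.6%, so the members did not stand above the other genes.

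Tested site by site, 555 of 3648 sites in the members (15.2%) were more edited in arsenite in S2 cells (quasi-binomial test on reads, adjusted p under 0.05, at least 5 reads in every library), against 21.6% of all 18209 sites tested. Lower editing was called at 3 sites, in CG8184, beta-Spec and Vps13, against 0.104% of all sites. Where no edited read was seen, the upper limit given is 3 reads over the reads at the site and covers counting error only. The sites that were called higher fell in 122 of 143 members with a tested site. Members had many sites by the choice, and other genes were not counted in this way, so this count has no background. The most called sites were in Glt (18 of 41), pzg (16 of 29), Rif1 (15 of 31), LanB1 (14 of 62) and eIF4G1 (13 of 39). Requiring 20 reads in every library gave 113 calls among 341 sites tested in members, where 43.7% of all 3067 sites were called. Leaving out Schneider's replicate 1, 2 or 3 left 317, 327 or 301.

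The largest difference at a called site was in Ulp1, at chrX:19204736 (BDGP6), in coding sequence with the triplet cAc. The 3 Schneider's libraries had 2 of 9, 3 of 8 and 2 of 7 reads edited, the 3 arsenite libraries 6 of 7, 8 of 8 and 12 of 13, in 0 of 6 reads without induction. This is a difference of 63.7 percentage points (quasi-binomial adjusted p = 8.92e-05). It was also among the 5 sites with the highest share in S2 arsenite. Of the other 4, the sites in Dp1, Not1 and Rbcn-3A read G in every S2 read with and without induction, and that in Sherpa in all but 1 of 32 Schneider's reads. A site in the 5′ UTR of the Arf exchange factor gene garz (chr2R:12326448) had 2 edited reads of 26 under Schneider's against 15 of 23 under arsenite, and one in the 5′ UTR of FASN1 (chr2L:3056656, triplet tAc) 7 of 36 and 24 of 34.

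The remaining 2 of the 5 largest differences were a pair of coding sites in Sin3A at chr2R:12584444 and chr2R:12584447. Both had 2 edited reads of 30 under Schneider's against 18 of 31 under arsenite, with the same edited count in every library. Such pairs were frequent at short distance. Of 348 neighbouring sites 1 to 5 nt apart, 110 (31.6%) had identical edited counts in all 14 libraries, of 237 pairs 6 to 10 nt apart 23 (9.70%), and of 1728 pairs 31 to 100 nt apart 0. The difference between arsenite and Schneider's in S2 cells was correlated between neighbours 1 to 5 nt apart with Spearman's rho = 0.44 (248 pairs), 6 to 10 nt apart with 0.30 (156 pairs), 11 to 30 nt apart with 0.14 (570 pairs) and 101 to 300 nt apart with -0.02 (954 pairs). In brains the first of these was 0.46 (168 pairs). Sites this close lie in the same reads, so they are not separate measurements of their RNA.

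The region of the transcript made a difference that was noticed in these data and is given with its values. In Schneider's the 5′ UTR sites of the members were the least edited, and in arsenite they reached the level of coding sites. Over 104 sites in S2 cells with at least 5 reads in every library, 5′ UTRs were at 5.86% ± 0.498 in Schneider's and 20.4% ± 0.923 in arsenite (SD, n = 3 each), 3.49-fold. Over 3442 coding sites the values were 12.7% ± 0.124 and 21.4% ± 0.0747, 1.68-fold, and over 98 sites in 3′ UTRs 12.4% ± 0.637 and 19.0% ± 1.93. The 5′ UTR mean minus the coding mean was -6.83 percentage points in Schneider's and -0.908 in arsenite, a shift of 5.92 with no overlap of the groups (exact permutation p = 0.1, the smallest possible).

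In brains, 59 sites in 5′ UTRs went from 2.95% ± 0.274 to 9.32% ± 2.16 (SD, n = 3 each) and 2060 coding sites from 4.93% ± 0.462 to 9.19% ± 2.16, and the same shift was 2.11 percentage points (exact permutation p = 0.1). The genes with fewer than 30 sites had a shift of 2.97 in S2 cells (exact permutation p = 0.1) and of 0.275 in brains (exact permutation p = 0.5). In S2 cells their 5′ UTR sites went from 4.35% to 17.2%, 3.95-fold, and their coding sites from 8.81% to 18.7%, 2.12-fold. The larger fold in 5′ UTRs was thus not particular to the members. In brains the folds in 5′ UTRs and coding sites were 2.58 and 2.17 in these genes, and 3.16 and 1.87 in the members. Among the tested sites of the members in S2 cells, 40 of 104 in 5′ UTRs (38.5%), 503 of 3442 in coding sequence (14.6%) and 10 of 98 in 3′ UTRs were higher.

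The same comparison can be made inside an RNA. In 53 members with both kinds of site in S2 cells, 43 had a lower share in the 5′ UTR than in the coding sequence in Schneider's, and 36 had the larger difference in the 5′ UTR. The median of that excess was 3.82 percentage points. In brains 27 of 36 had the lower share and 21 of 36 the larger difference. The 4 sites in the 5′ UTR of pzg averaged 0.985% in Schneider's and 24.3% in arsenite, and its 23 coding sites 9.82% and 27.4%. In FASN1 4 such sites went from 4.86% to 25.7% and in CG17018 7 sites from 4.06% to 19.5%. The 5′ UTR of chb, the microtubule-binding protein Orbit, departed from this, with 26.5% in Schneider's against 8.31% in its coding sequence.

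**Figure D3:**
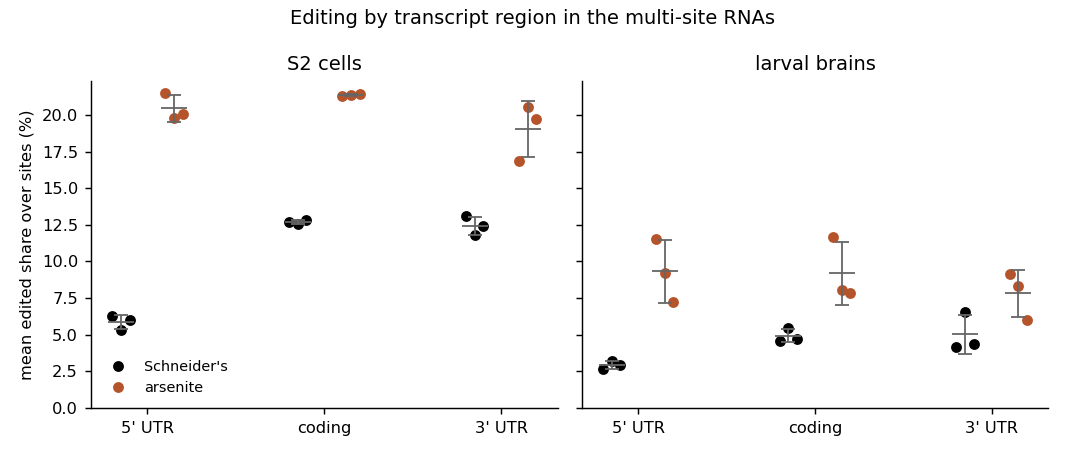
Mean edited share over sites (y axis, %) in 5′ UTRs, coding sequence and 3′ UTRs of the 145 RNAs; each point is a library, bars give the mean and SD of 3 libraries, black is Schneider's and red is arsenite. In S2 cells the 5′ UTR libraries lie near 6% in Schneider's, below the coding libraries near 12.7%, and near 20.4% in arsenite, close to the coding libraries near 21.4%.

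In brains fewer RNAs passed the test. 9 of the 145 (6.21%) were more edited in arsenite at limma p under 0.01, against 6.04% of all 4192 genes tested, so the members stood at the background. With adjustment over all genes 0 members passed in limma, against 0.0239% of all genes. At an unadjusted p under 0.05, 39 were higher and 0 lower, a limit at which all genes were not counted. The difference was above 0 in 134 members, a count that was not made over all genes. Its median was 4.23 percentage points against 4.86 for all genes. In 75 members the arsenite libraries all lay above the Schneider's libraries, which held for 27.5% of all genes. Without Schneider's replicate 1, 2 or 3 the count was 1 each time. Of the 9 RNAs, beta-Spec, DIP2, Ulp1, Sin3A, asp, Epg5 and flfl were called in S2 cells too, and Tor and CG2747 were not.

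The largest difference in brains was that of Tor, the growth-controlling kinase, with 1.57%, 4.73% and 3.49% in Schneider's and 20.4%, 13.6% and 12.9% in arsenite (12.4 ± 2.63, SE, limma adjusted p = 0.138). In S2 cells the same RNA overlapped between the groups, with 17.3%, 15.6% and 17.1% against 15.2%, 29.01% and 21.9%. The autophagy gene Epg5 had 2.11%, 1.11% and 0.595% against 12.9%, 16.998% and 9.70% (11.9, limma adjusted p = 0.13), and the spindle gene asp 6.36%, 7.57% and 4.88% against 19.1%, 15.1% and 19.3% (11.6, adjusted p = 0.112). DIP2 followed with a difference of 10.04 and the PHD-finger gene rno with 9.90, which did not pass (limma adjusted p = 0.181). None of these 5 depended on the first arsenite library for its direction, since all 3 arsenite libraries were above the Schneider's libraries. Reads summed over the brain libraries were few for Tor (982), Epg5 (785) and asp (1067), against a median of 2290 over members. DIP2 had 2380 and rno 1498. The call was lost in 8 of 15 alternatives for Tor and 8 of 15 for DIP2. It was lost in 6 of 14 for Epg5 and 4 of 15 for asp.

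The smallest differences in brains also came from RNAs with few reads there. CG17018 (a difference of -5) had 23 reads in Schneider's, Glt (-4.63) had 71, and cmet, a centromere-associated kinesin, had 258 and 130 reads with 7.44%, 8.87% and 11.8% against 3.62%, 9.52% and 0% (-4.99, limma adjusted p = 0.385). In bulk samples, fewer cells that hold the RNA and less RNA per cell cannot be told apart. CR43283 was the reverse case, with 4658 and 5877 reads in brains and only 65 in Schneider's S2 cells. In brains it was edited at 16.0%, 20.8% and 19.6% in Schneider's and 19.0%, 18.6% and 18.1% in arsenite, groups that overlapped, against 1.01% without induction. pros, the homeodomain factor of dividing neural precursors, had 13.997%, 20.1% and 15.9% against 24.9%, 19.8% and 12.6%.

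By site, 8 of 2215 tested sites in brains (0.361%) were more edited in arsenite, against 0.59% of all 12713 sites. Without Schneider's replicate 1, 2 or 3 the count was 0, 2 or 4, and without arsenite replicate 1 it was 2. The largest difference was in beta-Spec at chrX:17666660 (triplet cAg), with 9 of 21, 7 of 20 and 5 of 15 reads edited under Schneider's against 13 of 17, 14 of 18 and 11 of 13 under arsenite (quasi-binomial adjusted p = 0.0177). A site in Usp7 (chrX:12027013, triplet tAt) had 0 edited reads of 32 under Schneider's, an upper limit of 9.38% for its share, against 7 of 10, 5 of 15 and 3 of 12 under arsenite (quasi-binomial adjusted p = 0.00749).

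In Schneider's the members were less edited in brains than in S2 cells. The mean was 9.20 percentage points lower (exact permutation p = 0.1), and 100 of 145 RNAs (69%) were called lower in brains by limma at p under 0.01, against 16.2% of all 4963 genes. S2 libraries gave more of the edited reads from which the sites were called, since 5751 of the 5951 sites had an edited read in induced S2 cells and 4080 in induced brains, so this direction is tied to the choice of the RNAs. Only CR43283 was higher in brains, against 1.47% of all genes, and it had only 210 reads over its 42 sites in all S2 libraries together. No member was called higher in brains with 5 reads at each position, on the arcsine scale or with the replicate number as a block. The same held without S2 Schneider's replicate 2 and without brain Schneider's replicate 2 or 3, while each other setting gave 1. When each position needed 5 reads in every library, 62 of 119 members tested were called lower in brains, against 18.7% of 2021 genes. Of these 62, 49 were among the 100.

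The arsenite difference itself was smaller in brains than in S2 cells for 16 members (11%) by the interaction test (limma, p under 0.01), against 8.83% of all genes, and larger for 0 in limma, also at an unadjusted p under 0.05, against 0.826%. The count was 10 without brain Schneider's replicate 2 and 28 without brain arsenite replicate 1. Over members the median difference of differences was -4.16 percentage points, and -5.56 over all genes. The largest were cmet (-15.7), the TORC1-controlled transcription factor gene REPTOR (-15.0), Glt (-14.5), FASN1 (-14.3) and pds5 (-13.0). REPTOR had 5.76%, 7.26% and 5.59% in Schneider's and 26.8%, 18.4% and 24.0% in arsenite in S2 cells, well apart, but 2.60%, 2.71% and 1.83% against 7.42%, 4.34% and 0.970% in brains, overlapping. FASN1 in brains had 4.05%, 1.93% and 1.55% against 9.77%, 5.73% and 5.01%, and pds5 1.56%, 3.09% and 0.570% against 9.11%, 5.42% and 7.06%. The differences of these 2 RNAs had the same sign in both sources. Across the 145 RNAs the differences in S2 cells and brains, from separate libraries, had Spearman's rho = 0.37.

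**Figure D4:**
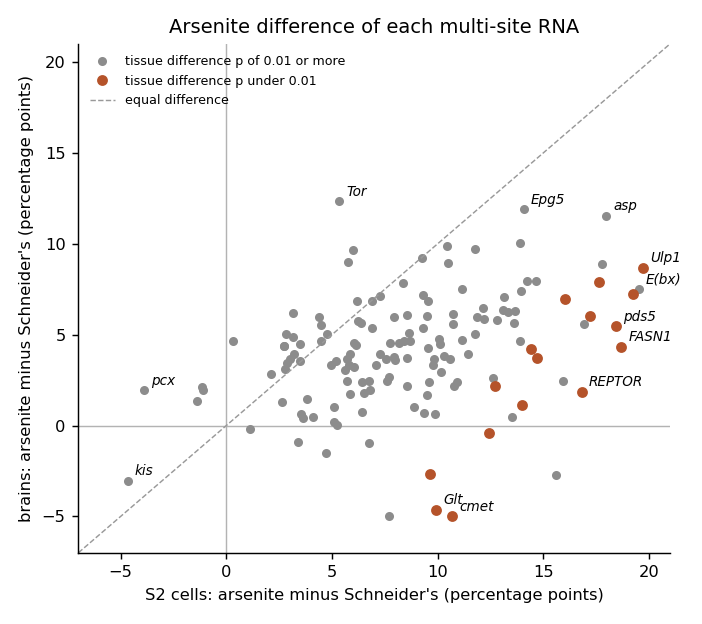
Arsenite minus Schneider's in S2 cells (x axis, percentage points of average editing frequency) and in brains (y axis), one point per RNA; red points are the 16 RNAs whose differences were apart at limma p under 0.01, and the dashed line marks equal differences. Most points lie below the line, red points all do, and Tor lies above it.

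Many adenosines were edited in both sources. Of the 5951 sites, 3931 had an edited read in both, 1820 in S2 cells only and 149 in brains only. This needed only 1 edited read, and sites were called on both sources together. Where a site had at least 50 reads in each source, an edited read was found in both at 1570 of 1874 sites (83.8%), in S2 cells only at 272 and in brains only at 27. The edited shares in arsenite had Spearman's rho = 0.60 between sources over these sites. Within 78 RNAs with at least 10 such sites, rho was 0.64 at the median and above 0 in all 78, from 0.12 in poe to 0.93 in Ulp1. Between Schneider's and arsenite in S2 cells the corresponding median was 0.75. These values describe sites that share their base context and the libraries.

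Single sites differed between the sources. In arsenite, 437 of 2263 tested sites in members (19.3%) were less edited in brains, near the 20.3% of all 11741 sites, and 8 were more edited, against 0.622%. Without brain arsenite replicate 2 or 3, 211 or 204 sites were called lower. The largest difference was a coding site in Dp1, an RNA-binding protein gene of the vigilin type, at chr2R:18417093. It read G in 80 of 80 reads in S2 arsenite and in 0 of 37 in brain arsenite (upper limit 8.11%), and also in 22 of 22 reads of uninduced S2 cells. The next site was in mon2, an endosomal trafficking gene (chr2L:8118021, triplet cAg), with 14 of 19, 17 of 25 and 13 of 23 reads in S2 arsenite and 0 of 24 in brains (upper limit 12.5%). In uninduced S2 cells it had 1 of 16 reads edited. In Top2, the topoisomerase II gene (chr2L:19449719, triplet aAg), the counts were 34 of 48 in S2 cells and 4 of 34 in brains (quasi-binomial adjusted p = 2.25e-05).

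Single S2 cells gave libraries that had no part in the choice of members. Their sites were nevertheless called with arsenite wells included, so the direction of the difference is in part tied to this, as in bulk. On 2 plates, reads were summed over the wells of a condition, and 143 members had sites there. CR43283 and pros had none. Of the 5951 sites in members, 4771 (80.2%) were also among the single-cell sites, against 67.0% of the other bulk sites. All 143 RNAs had a higher mean pooled share in arsenite than in Schneider's, against 92.2% of all 5994 genes. In 142 of them the arsenite values of both plates were above both Schneider's values, against 69.2% of all genes, and the exception was Adar with 8.08% and 10.2% in Schneider's and 8.90% and 13.0% in arsenite. The mean over members was 6.44% and 5.62% in Schneider's and 14.1% and 13.3% in arsenite on plates 1 and 2. The median difference was 7.53 percentage points over members and 8.68 over all genes. By limma at p under 0.01, 22 members (15.4%) were called higher, against 11.9% of all 5994 genes, and 0 after adjustment. At an unadjusted p under 0.05, 123 were higher, and all genes were not counted at that limit. With plate as a block, 0 members were called, against 1.74% of all genes, so the calls of pzg and Rif1 were also lost. The arsenite differences in bulk and in single cells had Spearman's rho = 0.70 over 143 RNAs, from separate libraries.

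pzg had 5.06% and 4.098% in Schneider's wells and 18.7% and 17.1% in arsenite wells (limma p = 0.00358), and Rif1 2.66% and 3.17% against 15.1% and 12.7% (limma p = 0.0076). kis, which was lower in arsenite in both bulk sources, was higher here, with 5.45% and 4.33% against 10.3% and 10.6% over 290 sites (limma p = 0.0337). These are pooled shares over all single-cell sites of the RNA, while the bulk values are means over its 44 bulk sites. Measure and sites thus differ between the 2, for kis as for the RNAs that follow. pcx and spen, negative in bulk S2 cells, were also higher on both plates, with 9.75% and 8.48% against 14.6% and 14.7% for pcx and 5.68% and 5.49% against 10.7% and 12.1% for spen. poe had 7.54% and 6.33% against 11.03% and 11.6%.

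**Figure D5:**
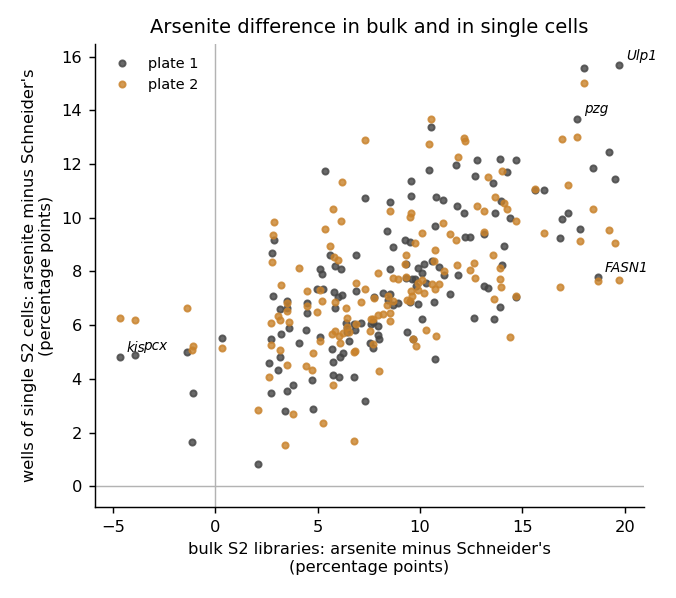
Arsenite minus Schneider's in bulk S2 libraries (x axis, percentage points) and in wells of single S2 cells (y axis, percentage points), 1 point per RNA and plate for 143 RNAs. Points rise together from left to right, and kis and pcx, left of 0 in bulk, lie above 0 on both plates. The x axis uses means over bulk sites and the y axis pooled shares over single-cell sites.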

How the data were processed

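VASA-seq, a strand-specific method that reads the whole transcript, was applied by the authors to 14 bulk libraries and 2 plates of sorted single S2 cells. Per the labels and the study's methods, reads were trimmed (cutadapt 3.2), cleared of ribosomal RNA (BWA 0.7.17-r1188), mapped to BDGP6 (STARsolo 2.7.7a, uniquely mapped reads with few mismatches), deduplicated (UMI-tools 1.1.1) and searched for variants in the merged libraries (GATK 4.1.9.0). Edited bases count as mismatches, so reads with many edits may be missing. The deposited values used were the read counts per allele in the variant tables, and the deposited average editing frequency per gene, a fraction, which the authors obtained by averaging the positions of a gene. Recomputed frequencies equalled the deposited fractions within 1e-06 for 4998 of 5003 genes and for all 145 members. Of the columns in the variant tables, 10 bulk library names and 42 wells matched no sample or condition used and were left out. The authors' tables of test results hold fold changes and p-values of their own comparisons and were not used.

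Average editing frequencies were compared by limma 3.58.1 in R 4.3.3, fitted on all genes with a frequency above 0 in a library of the comparison and called at p under 0.01, the threshold of the study, which used a different empirical Bayes test, with Benjamini-Hochberg adjusted p-values beside it. Sites with at least 5 reads in every library were compared by a quasi-binomial likelihood-ratio test on edited and total reads with moderated dispersion, called at an adjusted p under 0.05. The prior for the dispersion was estimated on sites with at least 1 expected edited and unedited read per library. Sample means were compared by exact permutation. Both fits were tested on simulated data. Regions, codon positions and spliced distances came from the Ensembl annotation of the longest matching transcript. Members, gene lists and functional groups were chosen with earlier results of these data known, and the functional groups after the members' values had been seen. Members described with values were those with the most sites, the largest and smallest differences, gaps and interactions, those on the lists and those the study names; other RNAs named were chosen after their values were seen. Alternatives included other site limits, transformations, read minima, leaving out a library, and division by the mean of the other genes, chosen after seeing the data.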

Additional observations from a re-analysis of the deposited data

Results flagged for a closer look

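For 10 of the RNAs described with values, the difference between arsenite and Schneider's was itself different between brains and S2 cells by the interaction test (limma, p under 0.01). The brain difference minus the S2 difference was -15.7 percentage points for cmet, -15.0 for REPTOR, -14.5 for Glt, -14.3 for FASN1, -13.0 for pds5, -12.8 for LanB1, -12.0 for Rif1, -11.0 for Ulp1, -11.0 for eIF4G1 and -9.74 for pzg. With adjustment over all genes the p-values of REPTOR (0.0473), Glt (0.0409), FASN1 (0.0343), pds5 (0.0276) and LanB1 (0.0259) stayed under 0.05, and those of cmet (0.0611), Rif1 (0.101), Ulp1 (0.0692), eIF4G1 (0.0736) and pzg (0.1) did not. In 2 of them the brain values rest on few reads, 71 in Schneider's for Glt and 130 in arsenite for cmet, and the part of read depth was not tested. For Ulp1 and pzg the brain libraries in arsenite were nevertheless all above those in Schneider's.

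The single-cell plates also held wells in Krebs Ringer bicarbonate, a condition that no comparison above uses. There the mean pooled share over the members was 8.72% on plate 1 and 9.33% on plate 2, above the 6.44% and 5.62% of the Schneider's wells and below the 14.1% and 13.3% of the arsenite wells. For the RNAs with fewer sites the values in this condition were 10.04% and 9.58%.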

How the results depend on the processing

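The number of RNAs called higher in S2 cells was 57, and it became 88 with all 12 induced samples in 1 fit, 2 after division by the mean of the other genes and 26 to 50 with a replicate left out. In brains 9 became 4 on the arcsine scale, 0 with adjusted p, 19 in the 12-sample fit, 0 after division and 1 to 12 with a replicate left out, the 3 fits without a Schneider's library giving 1. The interaction called 16, and 3 on the arcsine scale, 7 with adjusted p and 10 to 28 with a replicate left out, 28 without brain arsenite replicate 1. The resting comparison called 100, 62 of 119 tested with 5 reads at every position and 73 to 109 with a replicate left out. Sites called in S2 cells numbered 555 of 3648 tested, and 364 of 1564 with 10 reads and 113 of 341 with 20 reads. The count was 190 by weighted limma and 301 to 410 with a replicate left out. In brains 8 sites became 14, 4, 19 and 0 to 10, and between sources 437 became 246, 41, 260 and 204 to 458. Other limits would give 346 members (at least 20 sites), 63 (at least 40) or 87 (quality above 1000), of which 36.8%, 36.5% and 36.8% were called higher in S2 cells. The median gap was 92 nt on the genome and 108 nt at quality above 1000. The mean difference over members was 8.56 to 8.79 percentage points in S2 cells and 2.86 to 4.85 in brains with a replicate left out.

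No pairing by replicate number was seen: deviations of same-numbered libraries correlated between -0.041 and 0.023, and those of differently numbered ones between -0.035 and 0.040. Counting error at this depth can hide a pairing, so these values cannot decide whether the samples were paired. With the replicate number as a block, 21 RNAs were called in S2 cells, 0 in brains and 14 for the interaction, and by limma on site shares 0 sites in S2 cells, 0 in brains and 1 between sources, and with plate as a block 0 RNAs in single cells. Divided by the mean of the other genes, RNAs with many sites that had been higher in arsenite became lower, in multiples of that mean: poe -0.839, LanA -0.26, hyd -0.126, Dhc64C -0.724, Bruce -0.514, kug -0.569, CG8184 -1.01, dom -0.143 and IntS1 -0.574. The causes of these shifts were not tested, except that fewer sites or samples enter the stricter limits. A single-cell fit without a plate leaves no spread and was not run. Depth, 5 to 11 reads at the median site, limits the tests of single sites.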

Other observations

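Without induction, the sites of the multi-site RNAs were almost silent. Of 3134 sites with at least 10 reads in the uninduced S2 library, 93.1% had no edited read, and of 2211 such sites in the uninduced brain library 93.7% had none. Shares above 5% were found at 151 sites in S2 cells and 97 in brains, and above 20% at 9 and 5 sites. In S2 cells these included 4 sites at which every read was G, in Dp1 (22 of 22 reads), Not1 (10 of 10), Rbcn-3A (11 of 11) and Sherpa (12 of 12). In uninduced brains the site of Rbcn-3A (chrX:6250070, triplet tAa) read G in 4 of 5 reads, and that of Dp1 in 0 of 11. The sites of Not1 and Sherpa had 0 of 5 and 0 of 2 reads edited there, too few to set against S2 cells. A coding site in Atpalpha, the sodium pump gene (chr3R:20965039, triplet tAc), had 37.5% in uninduced S2 cells, 76.6% in Schneider's and 64.8% in arsenite, and a coding site in Chc (chrX:15831378, triplet tAc) 35.7%, 68.9% and 73.8%. In uninduced brains a coding site of the histone demethylase gene lid (chr2L:5992145, triplet gAc) had 17 of 27 reads edited, 53.2% in Schneider's and 44.7% in arsenite, and 0% in all S2 conditions.

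Under the same limits the members carried changes other than A to G, and these did not differ by treatment in the way A to G did. A-to-C changes were the next most frequent, at 1770 sites, with mean shares of 8.94% in uninduced S2 cells, 8.84% in Schneider's and 8.80% in arsenite, and of 8.52%, 8.49% and 8.53% in brains. T-to-G changes, at 644 sites, were at 4.76%, 4.68% and 4.44% in S2 cells. A-to-G changes made up 65.8% of all single-base changes in these RNAs and, over sites, averaged 0.723%, 14.7% and 23.2%.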
